A study of Mus musculus with 5 samples.

Results

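The Hox genes are a family of homeobox transcription factors that set position along the body axis of the embryo. In the mouse they lie in 4 chromosomal clusters, HoxA to HoxD, and members at the same place in different clusters form paralogue groups numbered 1 to 13. The genes described here are all rows of the deposited table whose symbol is Hox, a cluster letter and a paralogue number, 39 of 24411 gene rows. Their levels were read in single cells from the circulation of wild-type C57BL/6 mouse embryos at embryonic day 9.5 (E9.5, 2 batches) and embryonic day 10 (E10, 3 batches). Cells came from blood in the heart and were sorted as negative for the blood antigens TER119, CD41, CD43 and CD45. The labels name the E9.5 batches 1 and 2 and the E10 batches 3, 4 and 5, here called E9.5 replicates 1 and 2 and E10 replicates 1, 2 and 3. No treatment or mutant was included, and the labels do not say how many embryos were pooled in a batch, so the spread between batches may be technical in part.

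Genes at the 3′ end of a cluster (low numbers) are switched on early and as far forward as the hindbrain, and genes at the 5′ end (high numbers) are switched on later and nearer the tail. The most 5′ Hox gene that a cell of the trunk expresses therefore marks roughly the axial level at which the cell arose, and cells of the anterior head carry no Hox transcripts. HOX proteins bind DNA together with PBX and MEIS cofactors, and retinoic acid, CDX factors and GDF11 act upstream of different parts of the clusters.

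Promoters of 4 HoxA genes, from groups 5, 9, 10 and 11 at which the codes of many cells ended, are shown as sequence, together with Hoxb1, whose promoter is a textbook target of HOX and PBX proteins. Each line is the 250 bases before the RefSeq start of the gene, 5′ to 3′ on the gene's strand, in lower case, from build GRCm38.p6, which shares its coordinates with the mm10 build of the deposited counts. Capitals mark the only match in these 5 windows to a HOX-PBX motif (TGATNNAT, both strands). No match on either strand to a CDX motif (TTTATGG) or to the retinoic acid response element DR5 was found in them.
Hoxb1: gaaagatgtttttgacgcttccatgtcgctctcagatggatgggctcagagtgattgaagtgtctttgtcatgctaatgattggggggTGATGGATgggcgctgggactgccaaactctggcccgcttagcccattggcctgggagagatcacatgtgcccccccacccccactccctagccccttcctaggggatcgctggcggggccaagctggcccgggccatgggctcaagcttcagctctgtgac
Hoxa5: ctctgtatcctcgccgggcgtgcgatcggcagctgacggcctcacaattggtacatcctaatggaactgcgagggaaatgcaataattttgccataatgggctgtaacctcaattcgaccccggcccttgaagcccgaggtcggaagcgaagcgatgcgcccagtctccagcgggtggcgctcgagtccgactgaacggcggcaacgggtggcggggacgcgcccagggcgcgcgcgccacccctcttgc
Hoxa9: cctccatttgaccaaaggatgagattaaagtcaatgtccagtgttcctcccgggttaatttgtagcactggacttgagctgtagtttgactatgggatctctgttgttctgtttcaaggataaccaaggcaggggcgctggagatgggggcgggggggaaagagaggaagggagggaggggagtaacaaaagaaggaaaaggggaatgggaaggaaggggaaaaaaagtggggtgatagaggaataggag
Hoxa10: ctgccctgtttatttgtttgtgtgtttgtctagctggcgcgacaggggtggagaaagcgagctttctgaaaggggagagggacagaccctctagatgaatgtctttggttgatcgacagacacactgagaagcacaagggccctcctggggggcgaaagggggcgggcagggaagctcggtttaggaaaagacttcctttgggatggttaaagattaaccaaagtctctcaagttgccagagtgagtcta
Hoxa11: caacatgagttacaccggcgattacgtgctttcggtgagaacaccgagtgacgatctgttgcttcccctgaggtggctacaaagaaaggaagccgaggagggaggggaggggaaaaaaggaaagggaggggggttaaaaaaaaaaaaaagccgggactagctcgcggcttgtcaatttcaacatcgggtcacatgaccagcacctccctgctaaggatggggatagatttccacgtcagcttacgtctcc
The Hoxb1 window is chr11:96365508-96365757 on the plus strand, with its last 6 bases in the first exon of Hoxb1 in GENCODE M21. The other windows are on the minus strand. The Hoxa5 window, chr6:52204588-52204837, lies in introns of the long Hoxa3 transcript and of the antisense gene Hoxaas3. The Hoxa9 window, chr6:52227371-52227620, lies in an intron of a longer Hoxa9 transcript. The Hoxa10 window is chr6:52240855-52241104, with no annotated gene on it. The Hoxa11 window, chr6:52245811-52246060, overlaps exons of the antisense gene Hoxa11os over 98 bases. In the RefSeq promoter table, 22 of the 39 Hox genes had an entry, 24 entries in all. The TGATNNAT letters stood in 4 of these 24 (Hoxa2, Hoxb1, Hoxb8 and Hoxd11), 16.7%, against 7.68% of all 32851 promoters. The CDX letters stood in 1 of 24, that of Hoxd4, against 2.43% of all. DR5 stood in none of the 24 and in 0.00913% of all. These are descriptions of letters in a window, not of binding.

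A total of 294 cells with at least 1000 genes and 30000 UMIs were kept, 26 and 46 from E9.5 replicates 1 and 2 and 87, 72 and 63 from E10 replicates 1, 2 and 3. The median was 308924 UMIs per cell, and batch medians ran from 144729 (E9.5 replicate 2) to 485692 (E10 replicate 1). A UMI (unique molecular identifier) marks a molecule, and levels are UMIs of a gene per 1000000 UMIs of the cell (CPM). Clustering without Hox genes gave 11 clusters, of which 3 with 60 cells were led by red cell or blood progenitor genes and are called blood-like, although the sort was set against blood antigens. They held 1, 14, 1, 30 and 14 cells of the 5 batches in the order above. The other 234 cells include 2 neural or neural crest-like clusters, a Dppa5a-led cluster of 22 cells that all came from E10 replicate 1, and 5 unnamed clusters. Several clusters were mostly of 1 batch, so cell type and batch cannot be told apart for them. All batches use the same 96 well numbers, and wells that looked like faint repeats of a same-numbered well in another batch all fell under the UMI minimum.

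Hox transcripts were found in every kept cell, and outside the blood-like clusters nearly all cells carried a code of several Hox genes. At least 1 UMI was counted for 38 of the 39 genes. Hoxa13 had none, and 0 of 104791537 UMIs allows up to 0.0286 CPM. A Hox gene was called on in a cell at 2 or more UMIs and 20 or more CPM, and 36 genes were on in at least 1 cell, with Hoxa13, Hoxc12 and Hoxc13 on in none. The median cell outside the blood-like clusters had 7 Hox genes on and a summed Hox level of 788.7 CPM, and the most seen in a cell was 19 genes. In the median blood-like cell no Hox gene was on and the summed level was 97.9 CPM. Of the 40 Hox-negative cells, those with no gene on, 33 were blood-like (33 of 60) and 7 were not (7 of 234, 2.99%, exact 95% binomial interval 1.21 to 6.07%). Outside the blood-like clusters 4 cells had a best gene at 10 to under 20 CPM and 2 at 20 to under 30 CPM. Of the 60 blood-like cells, 14 and 15 lay in these ranges, so their split into Hox-negative and Hox-positive cells rests largely on the limit. In a cell at the minimum depth, 2 UMIs are 66.7 CPM, so the limit is stricter in shallow cells.

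**Figure D1:**
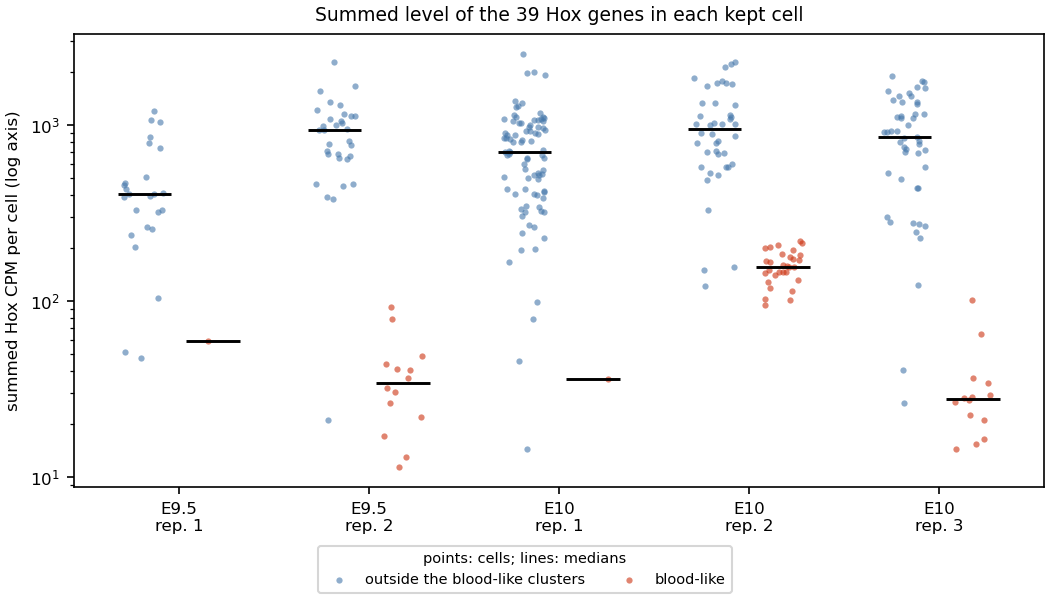
Summed CPM of the 39 Hox genes in each kept cell (log axis), by batch, with blood-like cells in red, all other cells in blue and lines at the medians. Blood-like cells lie below most other cells of their batch, and those of E10 replicate 2 lie higher (median 157.1 CPM) than those of E9.5 replicate 2 (34.2) and E10 replicate 3 (27.8).

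Blood-like cells served as the comparison for background UMIs, although blood progenitors are known to express some Hox genes, Hoxa9 and Hoxa10 among them. For Hox genes at 15 CPM or more in the other cells of a batch, the blood-like level was a median 4.14% of theirs in the second E9.5 batch (14 cells) and 3.01% in E10 replicate 3 (14 cells). In E10 replicate 2 (30 blood-like cells) it was 16.9%, between 6.93 and 27.2% over 20 genes. The blood-like cells of that batch had Hoxc10 on in 17 of 30, Hoxa10 in 12 and Hoxa9 in 7. Of the 23 red cell-like cells of cluster 5, all from this batch, 20 ended in groups 10 to 13, and of its 7 progenitor-like cells 2 did. Median depth was 388294 UMIs in these blood-like cells and 270795 in the other cells of the batch. At a limit of 50 CPM, 2 of the 30 had a gene of groups 10 to 13 on, and at 100 CPM none had, which with 30 cells allows up to 10%. Subtracting 5% of the UMIs of same-numbered wells in other batches left 87.5% of all kept cells of E10 replicate 2 in groups 9 to 13. Its Hox-negative share stayed at 11.1%. Blood-like cells were not split out there. The part of free RNA, or of carry-over between wells of the same batch, in these UMIs was not tested. Calls for that batch are given below at the higher limits too.

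The batches differed in how far 5′ their Hox code reached, and the differences lay within each stage as well as between stages. In E9.5 replicate 1, 16 of 25 cells outside the blood-like clusters had a gene of group 5 as their most 5′ gene on, and 21 of 25 ended in groups 1 to 5 (84%, exact 95% interval 63.9 to 95.5%). In E9.5 replicate 2, 28 of 32 cells ended in group 9, and 30 of 32 in groups 6 to 9 (93.8%, 79.2 to 99.2%). The share in groups 6 to 9 was 4% (0.101 to 20.4%) in E9.5 replicate 1, and the share in groups 1 to 5 was 3.13% (0.0791 to 16.2%) in E9.5 replicate 2. For both shares, the intervals of these 2 batches of the same stage do not overlap, and they cover counting error only.

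At E10, replicate 1 resembled the first E9.5 batch, with 63 of 86 cells ending in groups 1 to 5 (73.3%, exact 95% interval 62.6 to 82.2%), 14 in groups 6 to 9 and 7 in groups 10 to 13. Cells of E10 replicate 2 reached farthest, with 17 of 42 ending in group 10, 18 in group 11 and 39 in groups 10 to 13 (92.9%, 80.5 to 98.5%). E10 replicate 3 was mixed, with 17 of 49 cells in groups 1 to 5, 22 in groups 6 to 9 and 8 in groups 10 to 13. With a gene called on at 50 CPM, 35 of the 42 cells of E10 replicate 2 still ended in groups 10 to 13, and 33 at 100 CPM, a limit added after the data were seen. Blood-like cells of that batch fell to 2 of 30 and 0 of 30 at these limits. The Hox-negative share outside the blood-like clusters was 2 of 25, 0 of 32, 2 of 86, 1 of 42 and 2 of 49 cells in the 5 batches, and 0 of 32 allows up to 9.38%.

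**Figure D2:**
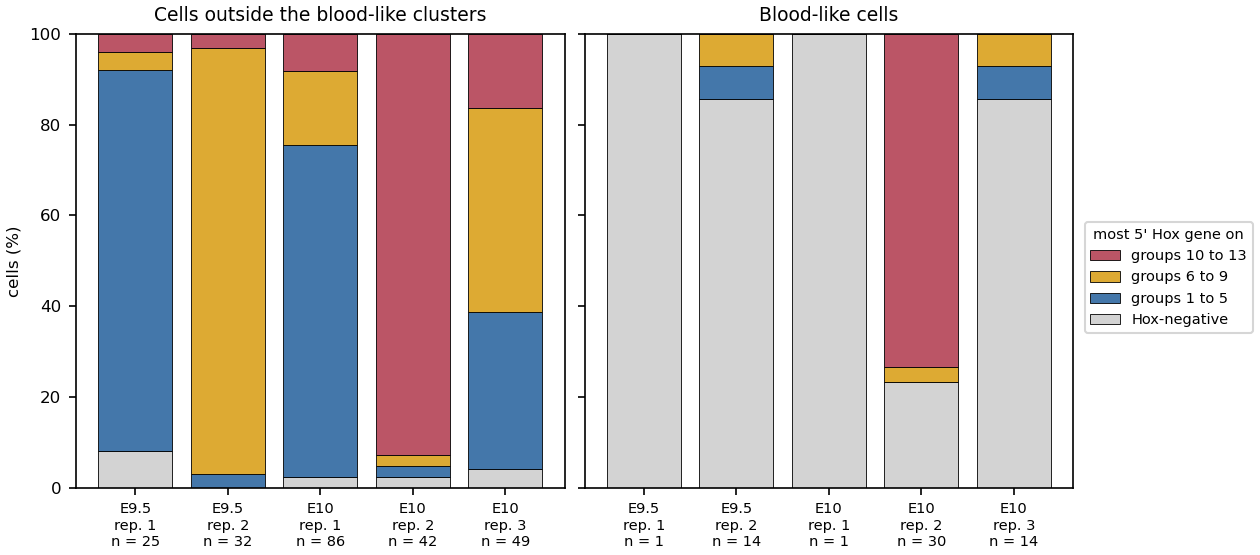
Share of cells (%) by the most 5′ Hox gene on, for each batch, in cells outside the blood-like clusters (left) and in blood-like cells (right), with cell numbers under the bars. Groups 1 to 5 take 84% of the first E9.5 batch and groups 6 to 9 take 93.8% of the second, while groups 10 to 13 take 92.9% in E10 replicate 2, where they also take 22 of 30 blood-like cells.

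The stage comparison asked whether the Hox code moved between E9.5 and E10 when batches are the replicates. Over all kept cells, the share of cells ending in groups 9 to 13 was 3.85 and 63.0% in the E9.5 batches and 21.8, 87.5 and 31.8% in the E10 batches, 33.4% ± 41.9 (SD, n = 2) against 47.0% ± 35.4 (SD, n = 3). The stages overlapped and the difference of 13.6 percentage points was smaller than either SD. Without E9.5 replicate 1 it was -16.0 points and without E10 replicate 2 it was -6.65, so its sign rests on these batches. Outside the blood-like clusters the difference was 4.72 points. The mean most 5′ paralogue number among Hox-positive cells was 4.83 and 8.53 at E9.5 and 5.62, 10.3 and 7.18 at E10, which also overlapped.

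Summed Hox CPM per cell was the one measure whose batch means did not overlap between stages over all kept cells. The means over all kept cells were 453.1 and 650.1 CPM at E9.5 and 739.4, 665.6 and 702.6 CPM at E10, a difference of 150.9 CPM. Outside the blood-like clusters they were 468.8 and 917.8 against 747.6, 1028 and 893.8 CPM, where the stages overlapped. With every kept cell thinned to 30000 UMIs they were 425.6 and 684.1 against 724.9, 676.9 and 696.3 CPM, which also overlapped. The share of Hox-negative cells over all kept cells was 11.5 and 26.1% at E9.5 and 3.45, 11.1 and 22.2% at E10, and 33 of these 40 cells were blood-like. With 2 against 3 batches an exact permutation over the 10 possible splits cannot go below p = 0.1, so these stage values are given with their spread and without a p.

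No single Hox gene passed the test between stages in edgeR. In the edgeR quasi-likelihood fit on batch sums of all kept cells, 0 of 33 Hox genes tested had an adjusted p under 0.05, where 0% of 14103 genes were called higher and 0% lower. Outside the blood-like clusters it was 0 of 32 Hox genes, again with 0% of 13630 genes called in either direction. At an unadjusted p under 0.05, 3 Hox genes (Hoxa11, Hoxc10 and Hoxd1) and 4 outside the blood-like clusters (Hoxa10 in addition) were higher at E10 and none lower. The share of all genes past this unadjusted limit was 4.73% higher and 3.2% lower over all kept cells, and 5.76% higher and 5.23% lower outside the blood-like clusters. DESeq2, the alternative, called 1 Hox gene over all kept cells, Hoxa11 (adjusted p = 0.0393), where it called 0.408% of genes higher and 0.304% lower. Outside the blood-like clusters it called 0 Hox genes, with 1.46% of genes higher and 1.51% lower. Among the 32 Hox genes tested outside the blood-like clusters, 24 had a log2 fold change above 0 and 8 below, with a median of 0.22, also with the 2 genes unseen at E9.5 set to their bound, against 0.08 over all genes tested. Without E9.5 replicate 2 the median was 3.29, with 30 above and 6 below 0. Without E9.5 replicate 1 it was 0.80, with 20 above and 16 below. With each cell thinned to 30000 UMIs, 25 were tested and the split was 13 above and 12 below 0. Only 32 of 39 genes passed the filter on low counts, so these counts describe the genes tested and not the family.

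**Figure D3:**
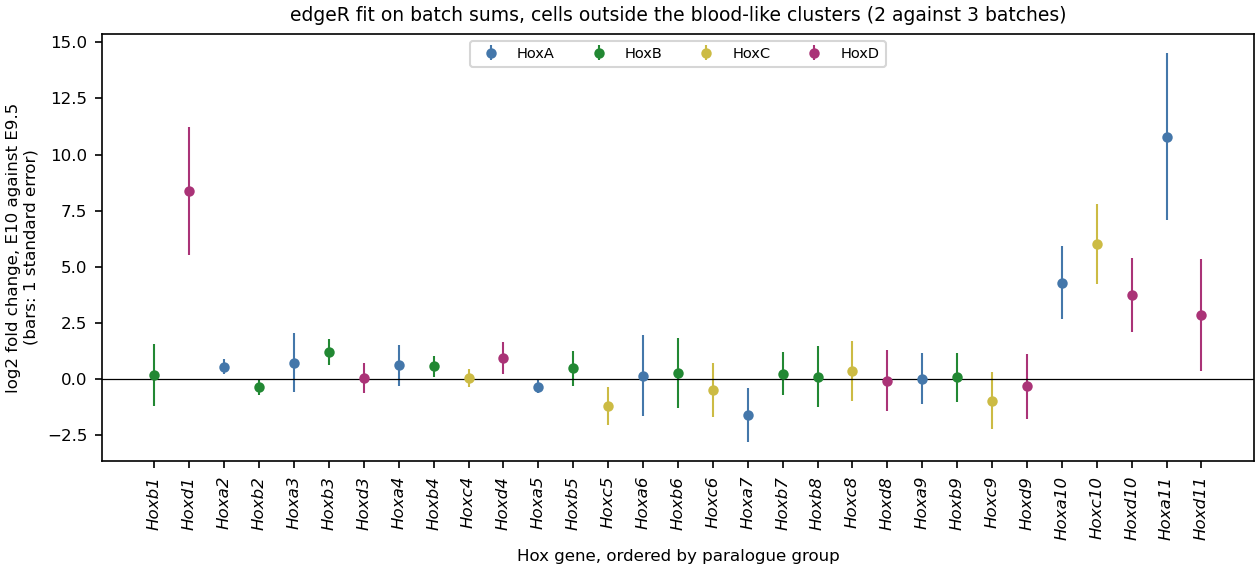
Log2 fold change from E9.5 to E10 for the Hox genes shown of those tested in the edgeR fit on batch sums of cells outside the blood-like clusters, with 1 standard error, ordered by paralogue group. Values of groups 2 to 9 lie between that of Hoxa7 (-1.58) and that of Hoxb3 (1.22). Hoxd1, Hoxa10, Hoxc10, Hoxd10, Hoxa11 and Hoxd11 lie higher, with none past the adjusted threshold. The fitted heights of Hoxd1 and Hoxa11, with no UMI at E9.5, depend on the prior count.

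Among group 1 genes, which act in the hindbrain, Hoxb1 separated batches rather than stages. The following levels are means of CPM over cells outside the blood-like clusters, given for E9.5 replicates 1 and 2 and then E10 replicates 1, 2 and 3. Hoxb1, known for patterning one hindbrain segment, was at 35.3 and 0 CPM at E9.5 and at 56.9, 27.3 and 15.3 CPM at E10. The batch without a Hoxb1 UMI outside the blood-like clusters is the one where most of these cells end in group 9. A count of 0 UMIs there allows up to 0.741 CPM, and the blood-like cells of that batch averaged 0.423 CPM of Hoxb1. Hoxd1 had no UMI at E9.5 and 1.86, 2.40 and 3.17 CPM at E10, so the stages did not overlap. With UMIs pooled over the E10 batches (150 outside the blood-like clusters), it was at least 8.20-fold above a floor of 3 counts over both E9.5 batches. The edgeR adjusted p was 0.409. Hoxd1 was on in only 7 of 234 cells.

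Group 2 and 3 genes were present in all batches. Hoxb2, a hindbrain gene, was on in 116 of 234 cells (49.6%) at 73.0 and 47.2 CPM in the E9.5 batches and 50.7, 24.5 and 56.8 CPM in the E10 batches. Hoxa2, which sets the identity of the hyoid arch, was on in 38.5% of cells at batch means from 21.1 to 48.7 CPM. Hoxb3, expressed in hindbrain and pharyngeal arches, was on in the largest number of cells of any Hox gene, 142 of 234 (60.7%). Its level was 50.2 and 44.2 CPM at E9.5 and 183, 33.7 and 95.5 CPM at E10, high in E10 replicate 1 and with overlapping stages (log2 fold change 1.22, SE 0.59, edgeR adjusted p = 0.475). Hoxd3 was at 12.9 to 54.1 CPM and Hoxa3, known for its role in the thymus and parathyroid, at 1.71 to 5.16 CPM. Long transcripts of Hoxa3 run over Hoxa4, Hoxa5 and Hoxa6, and those of Hoxd3 over Hoxd4, so reads of these genes may have been split or dropped in counting.

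Group 4 and 5 genes, which mark the neck and upper trunk, were the last genes on in most cells of E9.5 replicate 1 and E10 replicate 1. Hoxc4 was at 23.3 and 43.4 CPM at E9.5 and 31.4, 22.3 and 56.3 CPM at E10, with both stages over the same range. Its paralogues ran from 2.02 to 45.9 CPM (Hoxa4), 12.03 to 32.3 (Hoxb4) and 3.63 to 11.8 (Hoxd4). Hoxa5, which acts in lung and neck development, was among the most even genes, at 54.0 and 58.5 CPM at E9.5 and 47.1, 44.4 and 41.1 CPM at E10. The E9.5 batches were both above the E10 batches, by a small margin (log2 fold change -0.33, SE 0.30, edgeR adjusted p = 0.714). Hoxb5, expressed in gut-bound neural crest among other cells, was highest in E10 replicate 3 (102.8 CPM) and at 19.3 to 47.6 CPM in the other batches. Hoxc5 was at 9.55 and 23.8 CPM at E9.5 and 8.51, 4.41 and 7.01 CPM at E10, without overlap, but its gene model spans Hoxc6, Hoxc8, Hoxc9 and Hoxc10 (edgeR adjusted p = 0.616).

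Batch means outside the blood-like clusters did not overlap between stages for 5 of the 32 tested Hox genes. Hoxa11, Hoxc10 and Hoxd1 were higher at E10, 9.38% of those tested, where 19.7% of all genes tested were higher in this way. Hoxa5 and Hoxc5 were lower, 6.25%, against 10.7% of all genes. Both shares are below the background over all genes. For Hoxa11 the order is not shown at this depth, since 4 UMIs in E10 replicate 1 (0.0591 CPM) lie below the 0.421 and 0.741 CPM that a count of 0 allows in E9.5 replicates 1 and 2.

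Group 6 to 8 genes, which act in the trunk and at the level of the ribs, were low in E9.5 replicate 1 and present elsewhere. Hoxb6 was at 0 and 33.3 CPM at E9.5 and at 9.77, 11.1 and 39.1 CPM at E10. Hoxa7 was at 1.24 and 82.2 CPM and at 13.3, 26.1 and 7.26 CPM, highest in the second E9.5 batch. Hoxc8, which acts in thoracic vertebrae and limb-level motor neurons, was at 0.679 and 80.2 CPM and at 22.8, 74.3 and 74.1 CPM. All of these genes overlapped between stages, with E9.5 replicate 1 lowest in each. Hoxa6, Hoxc6, Hoxb7, Hoxb8 and Hoxd8 showed batch means from 0 to 40.5 CPM. Among them Hoxb7 was the only one above 10 CPM in E9.5 replicate 1, where its mean of 11.6 CPM came from 1 cell at 290.7 CPM. Hoxa6 was on in 7 cells outside the blood-like clusters.

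Group 9 genes, which mark the level between fore- and hindlimb, were high in E9.5 replicate 2 and E10 replicate 2. Hoxc9, known in thoracic motor neurons and vertebrae, was at 2.25 and 172.5 CPM at E9.5 and at 16.5, 85.9 and 59.2 CPM at E10. Hoxa9 was at 3.28 and 64.9 CPM and at 10.3, 71.3 and 15.8 CPM, with its promoter among those shown above. Its level in E9.5 replicate 2 was close to that in E10 replicate 2, while the remaining batches were at 15.8 CPM or below. Hoxb9 and Hoxd9 were lowest in E9.5 replicate 1 (0.834 and 0.127 CPM) and highest in E9.5 replicate 2 (24.6 and 44.7 CPM). The whole group took 33.4% of summed Hox CPM in the second E9.5 batch and 20.3% in E10 replicate 2, and 1.38 to 10.8% in the other batches.

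Group 10 and 11 genes, which act at the lumbar and sacral level and in the hindlimb, set E10 replicate 2 apart. Hoxc10 was at 1.67 and 0 CPM at E9.5 and at 2.87, 204.6 and 48.7 CPM at E10. E10 replicate 2 was far above the rest and E10 replicate 1 was barely above the E9.5 batches, although the stages did not overlap (log2 fold change 6.02, SE 1.76, edgeR adjusted p = 0.399). Leaving out 1 batch at a time gave Hoxc10 fold changes from 4.71 (without E10 replicate 2) to 13.6 (without E9.5 replicate 1). Hoxa10, a lumbar patterning gene named here for its unadjusted p, was at 3.41 and 0 CPM and at 3.35, 102.1 and 14.4 CPM, with overlapping stages (log2 fold change 4.30, SE 1.63, edgeR adjusted p = 0.427). The same 2 omissions gave Hoxa10 values of 2.45 and 12.8. The higher value of each gene is set against a batch with no UMI and depends on the prior count. In E9.5 replicate 1 both genes were on in 1 of 25 cells. Hoxa11, needed for forearm and kidney, had no UMI at E9.5 and 0.0591, 25.0 and 6.11 CPM at E10. With UMIs pooled over the E10 batches (478 in all), it was at least 26.1-fold above a floor of 3 counts over both E9.5 batches. The edgeR adjusted p was 0.41. The bound does not hold for E10 replicate 1 alone, whose 0.0591 CPM lies below that floor of 0.269 CPM. The antisense neighbour of Hoxa11, Hoxa11os, overlaps it, and no strand setting of the counting is recorded. Hoxd10 and Hoxd11 were also highest in E10 replicate 2 (18.6 and 26.7 CPM), and Hoxd11 was at 0 and 5.96 CPM at E9.5 and at 0 and 3.32 CPM in E10 replicates 1 and 3. Hoxc11 had UMIs only in E10 replicate 2 (6.29 CPM) among cells outside the blood-like clusters. Blood-like cells of that batch held 25.1 CPM of Hoxc10, 19.4 of Hoxa10 and 3.51 of Hoxa11, so lower levels of all 3 were also found in cells of another kind.

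Groups 12 and 13, which act at the tail end and in the digits, were near the detection limit. Hoxd12 was found only in E10 replicate 2 (3.26 CPM, on in 2 cells). Hoxd13, a digit gene, was at 0 and 0 CPM at E9.5 and at 0.698, 3.93 and 0 CPM at E10, on in 4 cells. Hoxb13 was on in 1 cell, and Hoxc12 and Hoxc13 had 13 and 56 UMIs in all with no cell past the limit.

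**Figure D4:**
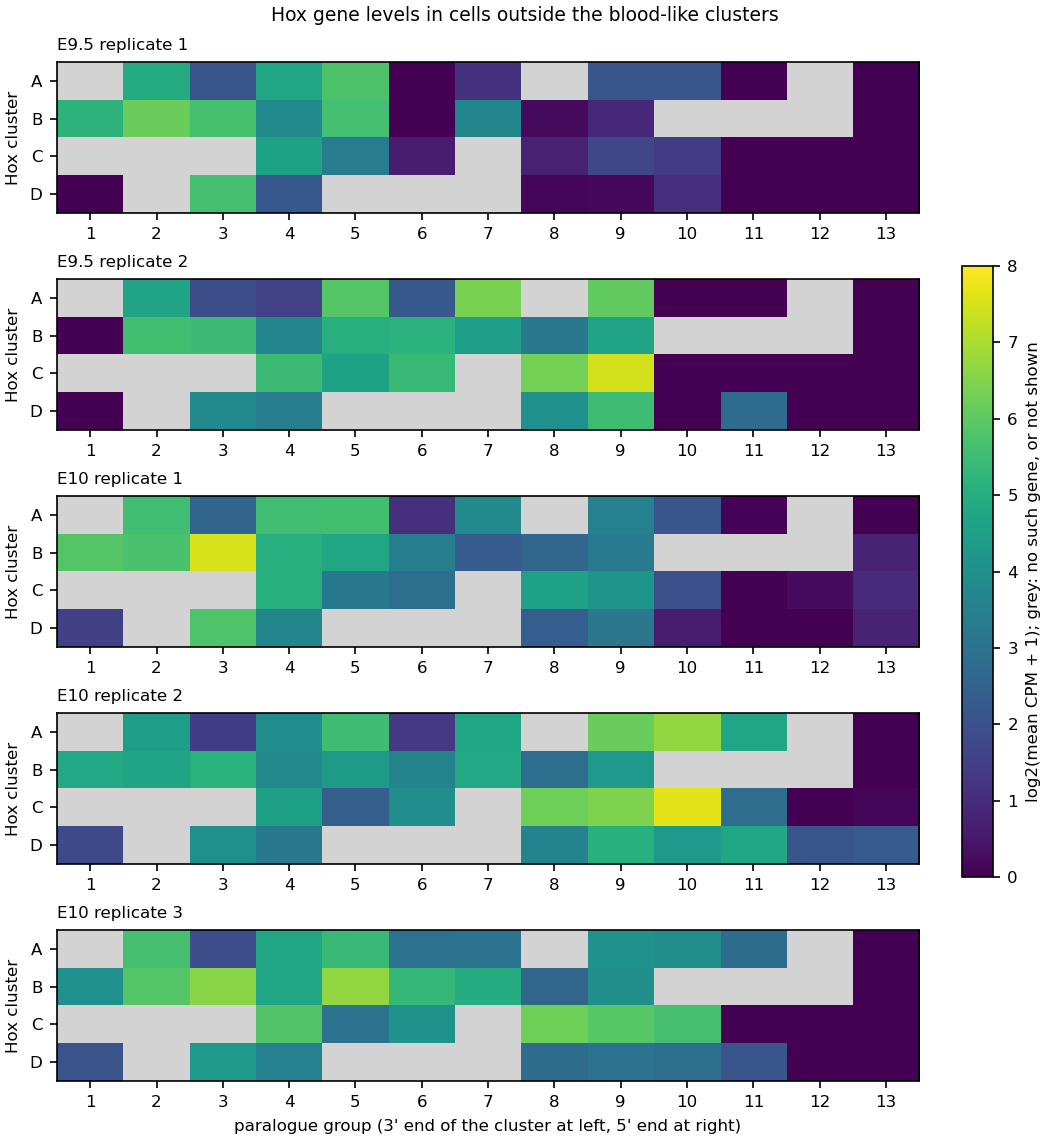
Mean level of each Hox gene in cells outside the blood-like clusters, as log2(mean CPM + 1), by cluster (rows A to D) and paralogue group (columns) in the 5 batches, with grey where the mouse has no gene or where a gene is not shown. High levels reach about group 5 in E9.5 replicate 1, group 9 in the second E9.5 batch and groups 10 and 11 in E10 replicate 2. They fade out gradually in E10 replicates 1 and 3. Lower values lie beyond these ends, such as Hoxb7 (11.6 CPM) and Hoxa10 (3.41) in E9.5 replicate 1 and Hoxd11 (5.96) in E9.5 replicate 2.

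Genes of all 4 clusters were on in each batch, but with different weight and not in every cell. HoxB held 49.5% of summed Hox CPM in the first E9.5 batch and 50.5% in E10 replicate 1, and 17.6% in E10 replicate 2. HoxC ran the other way, with 8.09 and 11.98% in the first 2 of these and 40.1% in the last. HoxA took 21.5 to 31.2% and HoxD 6.21 to 11.9% in the 5 batches. Of the 234 cells outside the blood-like clusters, 207 had a HoxB gene on, 204 a HoxA gene, 153 a HoxC gene and 134 a HoxD gene, and 83 (35.5%) had genes on in all 4 clusters. In gene content, HoxC has no gene in groups 1 to 3 and HoxB none in groups 10 to 12.

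Cells with a 5′ code kept the 3′ genes on. Of the 56 cells ending in groups 10 to 13, 53 also had a gene of groups 6 to 9 on, 43 one of groups 4 to 5 and 42 (75%) one of groups 1 to 3. Among the 68 cells ending in groups 6 to 9, 60 had a gene of groups 4 to 5 on and 59 (86.8%) one of groups 1 to 3. The summed level of groups 1 to 3 was 429.7 CPM in cells ending in groups 1 to 5, 185.1 in those ending in groups 6 to 9 and 161.1 in those ending in groups 10 to 13. The codes are called from the same Hox levels, so this contrast is not independent of them. It also carries the batch. Of the 103 cells ending in groups 1 to 5, 63 came from E10 replicate 1, and of the 56 ending in groups 10 to 13, 39 came from E10 replicate 2. Within a single cluster the run of genes from the most 3′ to the most 5′ gene on was often broken. Among cells with 2 or more genes on in a cluster, the run was unbroken in 36 of 149 for HoxA, 73 of 177 for HoxB, 45 of 94 for HoxC and 23 of 48 for HoxD. The gene most often skipped was Hoxa3 (78 cells), Hoxb4 (61), Hoxc5 (33) and Hoxd4 (15), of which all but Hoxb4 overlap a neighbour in the annotation. At these depths a skipped gene may be present below the limit.

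Across the 234 cells outside the blood-like clusters, genes of nearby paralogue groups tended to vary together, mostly weakly, and distant ones did not. Over the 24 genes on in at least 10% of these cells, the median Pearson r of log2(CPM + 10) was 0.27 for the 16 pairs of neighbours in a cluster and 0.24 within batches. For the 63 pairs in different clusters more than 4 groups apart it was -0.11, and -0.04 within batches. Within batches the pairs of neighbours ranged from 0.02 to 0.48. The 51 pairs of the same cluster that were not neighbours had a median of 0.03 within batches. The closest pair was Hoxa10 and Hoxc10 (r = 0.87, 0.66 within batches), which lie on different chromosomes, followed within batches by Hoxc8 with Hoxc9 (0.48) and Hoxa9 with Hoxa10 (0.46). The most opposed pair was Hoxa4 and Hoxc8 (-0.33, -0.25 within batches). Cells of a batch share their library and range of depth, and cells of a cluster share their type, so these are descriptions without a p.

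**Figure D5:**
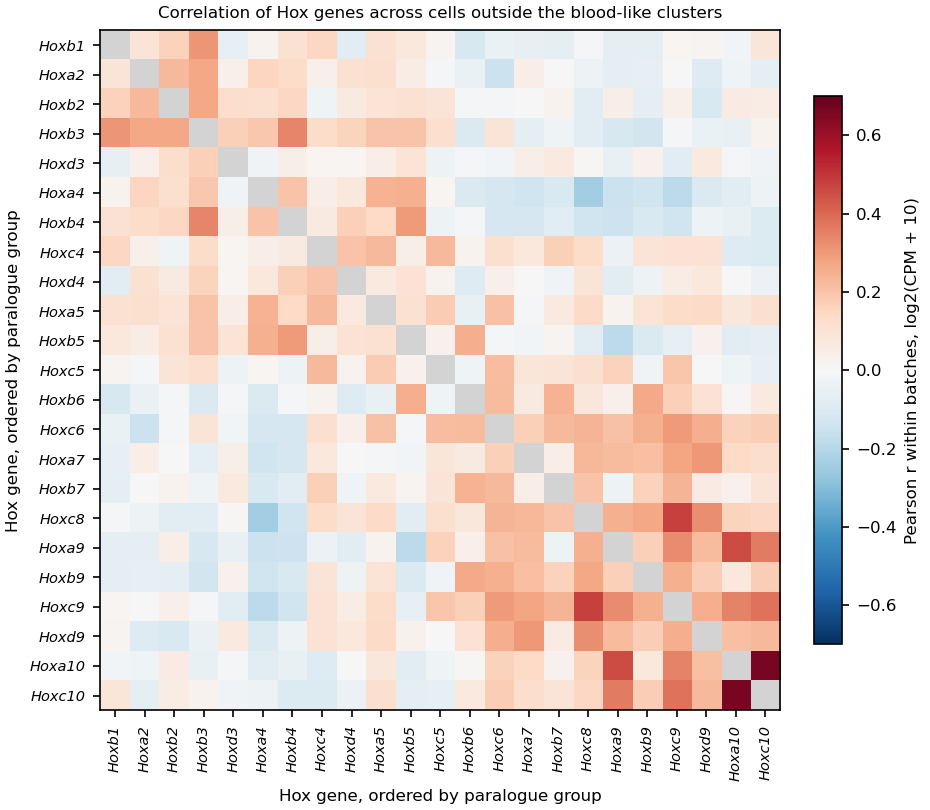
Pearson correlation within batches of log2(CPM + 10) between 23 of the 24 Hox genes on in at least 10% of the 234 cells outside the blood-like clusters, ordered by paralogue group along both axes. Positive values gather in blocks of groups 1 to 5 and 6 to 10 along the diagonal, with Hoxa10 and Hoxc10 the strongest pair at 0.66.

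The code also differed between cell clusters, which were drawn without Hox genes. Of the 39 cells in cluster 1, led by Car12, Col4a1 and Col4a2, 35 ended in groups 10 to 13, but 34 of the 39 came from E10 replicate 2. All 30 cells of cluster 3, with 8 mesenchymal markers, ended in groups 1 to 5, and 27 of them came from E10 replicate 1. The neural or neural crest-like cells of cluster 4, with Th and Dbh, ended in groups 6 to 9 in 23 of 25. That held in each batch with more than 1 such cell, with 5 of 5 in E9.5 replicate 2, 4 of 4 in E10 replicate 1 and 14 of 15 in E10 replicate 3. Hoxb5 averaged 176.4 CPM in cluster 4 and at most 45.1 CPM in any other cluster. Hoxb3 averaged 312.9 CPM in cluster 3 and at most 172.1 CPM in any other. The high means of Hoxb5 in E10 replicate 3 and Hoxb3 in E10 replicate 1 therefore cannot be told apart from the cell types of these batches. The Sox10-led neural crest-like cells of cluster 8 had no single code, with 8 of 17 in groups 1 to 5 and 5 in groups 6 to 9. In the Dppa5a-led cluster, 16 of 22 cells ended in groups 1 to 5 and 5 in groups 10 to 13, of which 1 did so at 100 CPM. No cell of it was Hox-negative, and its median summed Hox level was 364.9 CPM.

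Within one cluster, cells of different batches carried different codes. In cluster 0, 23 of 24 cells from E9.5 replicate 2 ended in groups 6 to 9, while 5 of 9 from E10 replicate 1 ended in groups 1 to 5. Its 14 cells from E10 replicate 3 were spread over groups 1 to 5 (5), 6 to 9 (5) and 10 to 13 (4). In cluster 2, 15 of 16 cells from E9.5 replicate 1 ended in groups 1 to 5, and 5 of 6 from E10 replicate 1 in groups 6 to 9. Whether these differences come from the batches or from unlike cells placed in one cluster was not tested.

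Among genes that work with or upstream of Hox genes, the lists were described by level and by the stage fits, where edgeR called 0 of their members in either direction (0% of all genes tested). At an unadjusted p under 0.05 outside the blood-like clusters, the lists held 0 of 9 tested cofactors, 2 of 10 upstream regulators, 3 of 10 head regulators and 7 of 18 trunk and limb regulators, where 5.76% of all genes were higher and 5.23% lower. DESeq2 called 0, 1, 2 and 4 of these, and 1.46% of all genes higher and 1.51% lower. The median log2 fold changes were 0.45, 0.01, 0.96 and 2.26, against 0.08 over all genes. Meis2, a cofactor of HOX proteins, averaged 446.4 CPM in cells ending in groups 1 to 5, 223.8 in groups 6 to 9 and 248.5 in groups 10 to 13. Its mean in cells ending in groups 1 to 5 differed by batch, at 232.1 CPM in the 21 cells of E9.5 replicate 1 and 541.7 in the 63 of E10 replicate 1. Of the 9 cofactors, 5 were highest in cells ending in groups 1 to 5 and 4 in groups 6 to 9. Of the CDX genes, Cdx1 averaged 2.29 CPM outside the blood-like clusters, Cdx2 0.0644 and Cdx4 had no UMI. The retinoic acid receptor Rarb averaged 36.4 CPM and the retinoic acid-making enzyme Aldh1a2 39.6 CPM.

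Of the 18 trunk and limb regulators, 10 had their highest mean in cells ending in groups 10 to 13, 3 in groups 6 to 9 and 5 in groups 1 to 5. Of the 14 head regulators with a UMI, 2, 4 and 8 were highest in these codes, in the same order. The share over all genes was not counted, so neither count has a background. Of the 56 cells ending in groups 10 to 13, 39 came from E10 replicate 2, so a gene high in that batch scores there. Pitx1 and Tbx4, which specify the hindlimb, averaged 93.1 and 10 CPM in cells ending in groups 10 to 13 and 0.876 and 0.0443 CPM in those ending in groups 1 to 5. Within E10 replicate 3, Pitx1 averaged 2.67 CPM in the 17 cells ending in groups 1 to 5, 21.7 in the 22 ending in groups 6 to 9 and 66.5 in the 8 ending in groups 10 to 13. Over batches Pitx1 was at 2.38 and 5.23 CPM at E9.5 and at 10.3, 90.4 and 21.6 CPM at E10. Tbx5, the forelimb counterpart of Tbx4, averaged 12.8 CPM in cells ending in groups 6 to 9 and 0.262 in groups 10 to 13, and 27.6 CPM in E9.5 replicate 2. Hand2, which acts in limb bud and autonomic neurons, was at 295.8 CPM in cells ending in groups 6 to 9, against 24.6 in groups 1 to 5. Most of this lay in the Th and Dbh cells of cluster 4 (764.4 CPM), and without them Hand2 was at 77.7 CPM in groups 6 to 9, 14.5 in groups 1 to 5 and 53.0 in groups 10 to 13. Other trunk and limb regulators differed less between codes or ran the other way, such as Wt1 (64.6 CPM in groups 1 to 5, 41.6 in 6 to 9 and 65.5 in 10 to 13) and Meox1 (70.7, 18.3 and 37.9 CPM). Among the 7 Hox-negative cells outside the blood-like clusters, 1 cell of E9.5 replicate 1 held 676.2 CPM of Barx1 and 192.1 CPM of Lhx8. Both are genes of the first pharyngeal arch, and the other 6 cells held none of either. Gata4, of the trunk and limb list, was at 20 CPM or more in 2 of the 7, with 857.9 CPM in a cell of E10 replicate 1. Means over the 7 cells included 97.3 CPM of Dlx2 from the head list and 58.0 of Tbx18 from the trunk and limb list. These cells therefore held genes of both lists. Codes and batches go together, so these levels carry the batch with them.

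Of 9794 genes with a UMI in at least 25% of the 234 cells, Sox11 (r = 0.34), Srrm1 (0.33) and Zfp503 (0.32) varied most with summed Hox CPM, and Klf2 (-0.35), Ssr2 and Apoe (each -0.33) most against it. The values within batches were 0.34, 0.34 and 0.37 and -0.30, -0.29 and -0.28. These correlations are weak, and cells share library and depth.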

How the data were processed

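Single-cell libraries were made by a modified STRT-seq with an oligo-dT primer carrying a cell barcode and a UMI, per the labels' protocols. The authors deposited UMI counts per gene and well. CASAVA 1.8, TopHat2 2.0.12, HTSeq and mm10 are named in the submitters' processing notes; the gene annotation and strand setting are not given in the sources used here. Of 480 wells, 294 had at least 1000 genes and 30000 UMIs over gene rows (95 spike-in rows dropped). At a limit of 5000 UMIs, 23 wells repeated a same-numbered well of another batch; none remained at 30000. No doublet caller was run, since cells were picked singly. Cells were clustered in scanpy 1.11.5 (2000 variable genes without Hox, 20 components, Leiden resolution 1) and named from at least 3 markers, unless more of the 10 leading genes belonged to another type's list. Batch sums were tested with edgeR 4.0.16 (TMM, filterByExpr, Benjamini-Hochberg over all genes), with DESeq2 1.42.0 as the alternative. The edgeR fit, but not DESeq2, was first run on counts simulated with a fixed dispersion. That run does not show what changes could be detected in these batches. Values in every batch are given for the member of highest mean CPM in each paralogue group and for any past the adjusted threshold; Hoxa9, Hoxa10, Hoxa11, Hoxc5 and Hoxd1 were added after their values were seen. Values of some genes are not reported here, though counts over genes include them. Other genes named come from the lists or are the 10 most correlated with summed Hox in each direction. Members and lists were chosen with earlier results of these data known. Replicate numbers follow accession order. Depth per cell ran from 31294 to 1407021 UMIs. Binomial intervals are exact (Clopper-Pearson, 95%), and a count of 0 allows 3 counts; both cover counting error only.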

Additional observations from a re-analysis of the deposited data

How the results depend on the processing

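Differences are E10 minus E9.5. Between 9 and 12 alternatives were run for each gene named with its unadjusted p and 11 to 14 for each share or mean. No Hox gene was called by edgeR under any of them, over all kept cells or outside the blood-like clusters; DESeq2 called 1 over all kept cells. The difference in Hox-negative share, -6.55 percentage points, was 0 at 1 UMI with no CPM minimum, 0.21 at 50 CPM and 0.71 at 100 CPM, and ran from -13.8 to 0.72 when 1 batch was left out. That in the share ending in groups 9 to 13, 13.6 points, was -0.61 at 100 CPM and ran from -16.0 to 43.2 with 1 batch left out. The mean most 5′ number differed by 1.02, and by -0.83 to 2.87 with 1 batch left out. Leaving out the first E9.5 batch or the second E10 batch turned the last 2 negative (-16.0 and -6.65 points; -0.83 and -0.28). Summed Hox CPM kept its sign in all 11 alternatives (52.4 to 249.4 CPM). The limit of 100 CPM and the subtraction of UMIs of same-numbered wells were added after the data were seen; the latter turned no sign. The cause of the changes with the limit was not tested. Hoxa11 was past the threshold in DESeq2 over all kept cells and in none of the other 8 alternatives there. No paired analysis was possible because the labels give the 5 batches different numbers, none shared between stages. In a cell at the minimum depth, 20 CPM is 0.6 UMIs, so there the minimum of 2 UMIs (66.7 CPM) sets the limit, for every group alike. Whether depth limits the calls in groups 11 to 13 was not tested.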

Other observations

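Non-coding genes of the Hox clusters showed batch patterns of their own, outside the 39 members. Hotairm1, in HoxA, was at 197.5 and 44.5 CPM in the E9.5 batches and 89.1, 17.7 and 44.6 CPM in the E10 batches (means over cells outside the blood-like clusters), on in 111 of 234 cells and at 3.28 CPM in blood-like cells. It was highest in the batch whose cells ended in group 5 and lowest in the batch whose cells ended in groups 10 and 11. Hoxa11os, antisense to Hoxa11, was at 2.09 and 0 CPM and at 0, 34.0 and 1.47 CPM, high in E10 replicate 2 only, with 4.66 CPM in blood-like cells. Mira, next to Hoxa6 and Hoxa7, was at 0.886 and 42.2 CPM and at 13.2, 14.3 and 17.3 CPM. Hotair, in HoxC, was seen outside the blood-like clusters in E10 replicate 2 only (5.54 CPM). Hottip, at the 5′ end of HoxA, and Evx2, next to Hoxd13, had no UMI in any kept cell. Overlapping genes on opposite strands cannot be told apart without a recorded strand setting, which touches Hoxa11os and Hotairm1.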
